A study of Homo sapiens with 6 samples.

Results

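Iron storage, uptake and iron-sensing genes were followed through mRNA and ribosome footprints in a renal carcinoma line. The group was given as 10 gene symbols, FTH1, FTL, TFRC, SLC40A1, SLC11A2, IREB2, ACO1, NCOA4, FBXL5 and PCBP1, and all 10 were found among the 19669 genes of the deposited table. The cells are 786-O, a clear cell renal carcinoma line in which the VHL ubiquitin ligase does not function in any of the groups. Each of the labels EV, WT and MT had 1 RNA-seq and 1 Ribo-seq library, so there were 6 libraries. Cycloheximide at 100 µg/ml was added to the medium for Ribo-seq and is not listed for RNA-seq. EV carries an empty vector. The series title names WT as PHYHD1-WT and MT as a PHYHD1 without the segment 107 to 130, whereas the design text calls WT untreated and MT overexpressing. No vector promoter, number of clones or iron content of the medium was given in the sources used here. The design text names 3 dishes per condition without saying whether they were pooled. Without replicates no p-value or error can be given, and every difference below is between libraries.

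Iron inside a cell is held in ferritin, a shell built of heavy chains (FTH1) and light chains (FTL). It enters with transferrin through the transferrin receptor (TFRC), crosses the endosomal membrane through SLC11A2 (DMT1) and leaves through ferroportin (SLC40A1). ACO1 (IRP1) and IREB2 (IRP2) are RNA-binding proteins that, when iron is scarce, bind a hairpin called the iron-responsive element (IRE). A hairpin in the 5′ untranslated region, as in FTH1, FTL and SLC40A1, then blocks initiation, while hairpins in the 3′ untranslated region of TFRC protect the mRNA from decay. FBXL5 marks IREB2 for destruction when iron is plentiful, PCBP1 delivers iron to ferritin and NCOA4 carries ferritin to lysosomes. SLC11A2 is made as isoforms with and without a hairpin, and values per gene cannot separate them.

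The hairpin that defines the 5′ group can be read in the RefSeq start-site windows (build GRCh38.p14, 250 bases before to 50 after a start site), which held entries for 9 of the 10 genes, 14 windows in all. FTL and the erythroid haem synthesis gene ALAS2 are shown, 5′ to 3′ on the gene's strand and with the loop in capitals. They were the only matches to the pattern searched among the group and the other genes listed with a hairpin.
FTL: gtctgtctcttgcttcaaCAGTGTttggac
ALAS2: ctgtcattcgttcgtcctCAGTGCagggca
The FTL stretch lies at chr19:48965329-48965358 on the + strand, 21 to 50 bases into the transcript, and that of ALAS2 at chrX:55030946-55030975 on the - strand, 3 to 32 bases into it. The pattern searched is a C, 5 bases, the loop CAGTG and a sixth base other than G. Then follow 5 bases that pair with the first 5, G with T allowed. The pattern was found on the gene's strand in 27 of 35116 windows (0.0769%) and on the opposite strand in 21 (0.0598%), and after the start site on the gene's strand in 6 (0.0171%). The letters CAGTG alone were in 32.2% of windows and in 4 of the 9 genes (FTL, TFRC, NCOA4 and PCBP1), of which only FTL had the stem. A match describes letters in the window and not protein binding. FTH1 had no entry. ALAS2 was listed at 0 in all 6 libraries.

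RNA-seq values are taken as FPKM, fragments scaled by gene length and library size. Ribo-seq values are taken as TPM, scaled the same way to a fixed sum. Both units were read from the values. The RNA-seq columns summed to between 459938 and 469859 and the Ribo-seq columns to 1000000. Read totals are unknown, so no counting error can be given. Genes above 0 in a single library of an assay had medians of 0.038 to 0.046 FPKM and 0.118 to 0.148 TPM, so values near 1 TPM rest on few reads. In libraries of whole cultures, fewer cells with an mRNA and less of it per cell cannot be told apart. PHYHD1 stood at 0.092 FPKM for EV, 118 for WT and 109.5 for MT, with footprints of 0, 222 and 905 TPM. The library labelled WT thus goes against the design text's untreated cells and with the series title, and WT and MT below mean the libraries so labelled. The renal marker PAX8 was present in all 6 libraries (74.5 TPM or 75.9 FPKM or more) and CA9, a hypoxia target of many renal carcinomas, was listed at 0 FPKM in all 3 RNA-seq libraries. All 3 endothelial and all 3 erythroid markers were at 0 in all 6 libraries, and the highest value of a leukocyte marker was 9.02 FPKM (CD68), with CD3E at 0.

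The ferritin chains were by far the most abundant mRNAs of the group, and ferroportin was nearly absent. FTH1 stood at 1742 FPKM for EV, 1299 for WT and 1700.1 for MT, which placed it 18th, 26th and 16th among all genes. FTL stood at 1337, 1209 and 1507 FPKM in the same order of labels. Together the chains made up 0.655%, 0.545% and 0.694% of the RNA-seq sums of EV, WT and MT. The ranges of FTH1 and FTL over the labels overlapped, although FTH1 was above FTL within each label. The labels are different conditions with 1 library each, so such a range is not a measure of error. PCBP1 (156 to 165 FPKM) and NCOA4 (146 to 158 FPKM) came next and also overlapped, with PCBP1 above NCOA4 within each label. TFRC lay between 37.3 and 46.8 FPKM. IREB2 (26.1 to 29.0 FPKM), FBXL5 (22.2 to 27.2) and ACO1 (20.0 to 22.6) followed, with FBXL5 overlapping both neighbours, and SLC11A2 (11.0 to 12.5 FPKM) was lower than these.

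Footprints put the genes in another order. FTH1 still led with 503 TPM for EV, 409 for WT and 459.8 for MT, but ranked only 352nd, 432nd and 379th among all genes. NCOA4 (187 to 201 TPM) and FTL (177 to 199.7 TPM) overlapped, although FTL had more than 8 times the mRNA value of NCOA4 in each label. TFRC followed at 108 to 126 TPM, then PCBP1 at 43.3 to 57.2 TPM. IREB2 (21.4 to 47.0 TPM) overlapped with PCBP1 above it but not with ACO1 (18.3 to 20.6), and SLC11A2 (11.98 to 24.9) overlapped with both IREB2 and ACO1, while FBXL5 lay at 6.39 to 8.25 TPM.

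**Figure D1:**
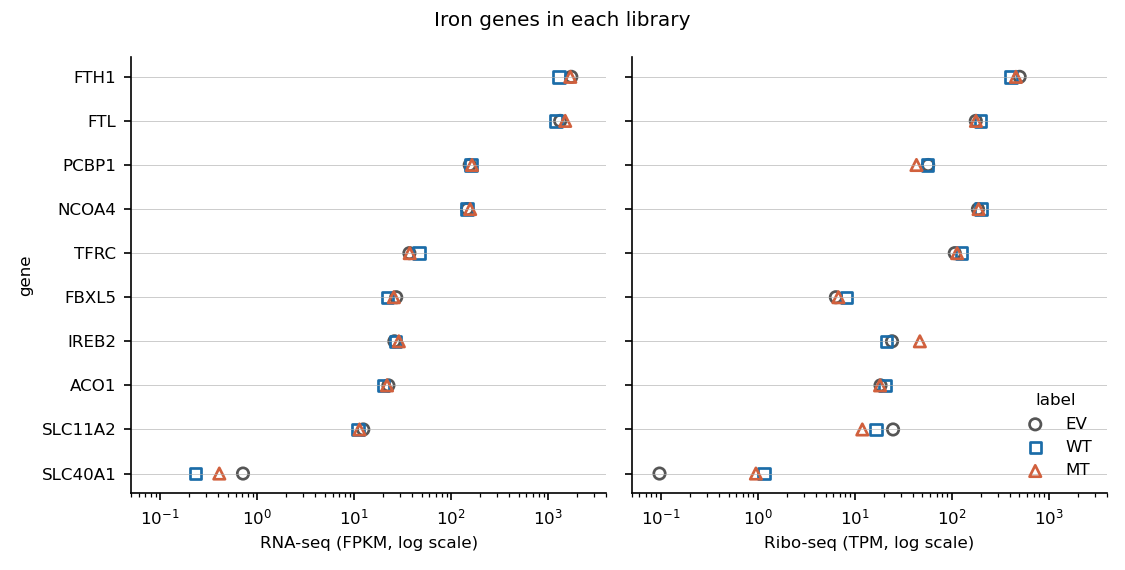
Deposited values of the 10 iron genes, RNA-seq in FPKM on the left and Ribo-seq in TPM on the right, both on log axes, with 1 symbol per library and label. FTH1 and FTL lie at 1209 FPKM or more in RNA-seq but between 177 and 503 TPM in Ribo-seq, and in Ribo-seq IREB2 is highest in MT and SLC11A2 highest in EV.

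The ferritin chains and PCBP1 carried few footprints for their mRNA level, and TFRC carried more than most ranked genes. The measure is the Ribo-seq value divided by the RNA-seq value after each library was rescaled to a sum of 1000000, and a gene was ranked where both deposited values were 10 or more. FTL had a ratio of 0.0625 for EV, 0.0762 for WT and 0.0548 for MT. It was the 18th lowest of 5031 ranked genes in EV, the 24th of 5100 in WT and the 16th of 5053 in MT. FTH1 had ratios of 0.136, 0.145 and 0.125 and was 91st, 107th and 88th from the bottom. The median over all ranked genes was 0.678, 0.653 and 0.665, which is 10.8 times the FTL ratio and 4.99 times the FTH1 ratio in EV. The FTL range over the 3 labels lay below the FTH1 range without overlap. The minimum of 10 also applies to footprints, the numerator of the ratio, so low ratios are ranked only for genes with abundant mRNA. CDC42BPA and HERC2 of the iron lists were left out by it, with ratios below FTL in all 3 labels (0.0444 and 0.0436 in EV). CDC42BPA is listed with a hairpin in its 3′ untranslated region, as TFRC is. Ranks from the bottom therefore hold among ranked genes only, and how far this minimum lowers them was not tested.

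PCBP1 had ratios of 0.173, 0.160 and 0.122 in EV, WT and MT (187th, 145th and 80th from the bottom), which overlapped those of FTH1. FBXL5 was too low in footprints to be ranked and had ratios of 0.111, 0.171 and 0.123. TFRC was the highest of the group's ranked genes with 1.36, 1.24 and 1.41, above 79.7%, 78.0% and 80.8% of all ranked genes. In EV this lay inside the 5th to 95th percentiles (0.193 to 3.05). High ratios were not shared by all genes listed with a 3′ hairpin. CDC42BPA lay below FTL, and CDC14A, also unranked, had 0.189, 0.287 and 0.194. NCOA4 was close to the middle (0.599, 0.635 and 0.558), and ACO1 lay lower (0.384, 0.474 and 0.387). IREB2 and SLC11A2 were the ranked genes of the group whose place shifted most between labels. The IREB2 ratio of 0.438 for EV, 0.367 for WT and 0.752 for MT was above 28.7%, 21.6% and 55.8% of ranked genes. The SLC11A2 ratio of 0.940 for EV, 0.697 for WT and 0.488 for MT was above 65.5%, 52.8% and 34.9%.

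EPAS1, which encodes HIF2alpha, also has a hairpin in its 5′ untranslated region and was chosen after its values were seen. It had an unranked ratio of 0.179 for EV, 0.140 for WT and 0.252 for MT. The lengths and annotation behind the deposited units are not given, so ratios and their ranks depend on whether and how each gene's length was taken in both assays. RefSeq lists 27 pseudogenes named after FTH1, 20 after FTL and 4 after NCOA4, and how reads shared with such copies were assigned is not given, so the values of these genes are uncertain. The part of such copies in the low ferritin ratios was not tested. None is named after PCBP1, but an antisense gene (PCBP1-AS1) is listed at its locus and use of strand in counting is not given, so PCBP1 is uncertain too.

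**Figure D2:**
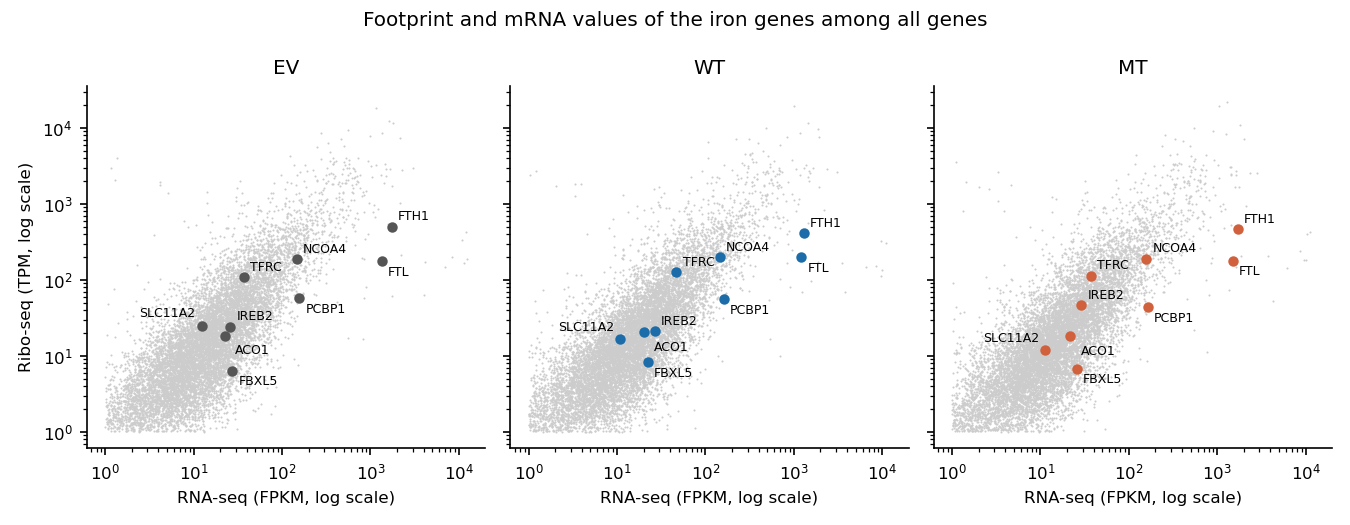
Ribo-seq value in TPM against RNA-seq value in FPKM, both on log axes, for every gene at 1 unit or more in both assays (grey) and for 9 of the iron genes (large dots, SLC40A1 left out for its low values), 1 panel per label. FTH1, FTL and PCBP1 lie along the lower edge of the cloud in all 3 panels and TFRC in its upper part.

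**Figure D3:**
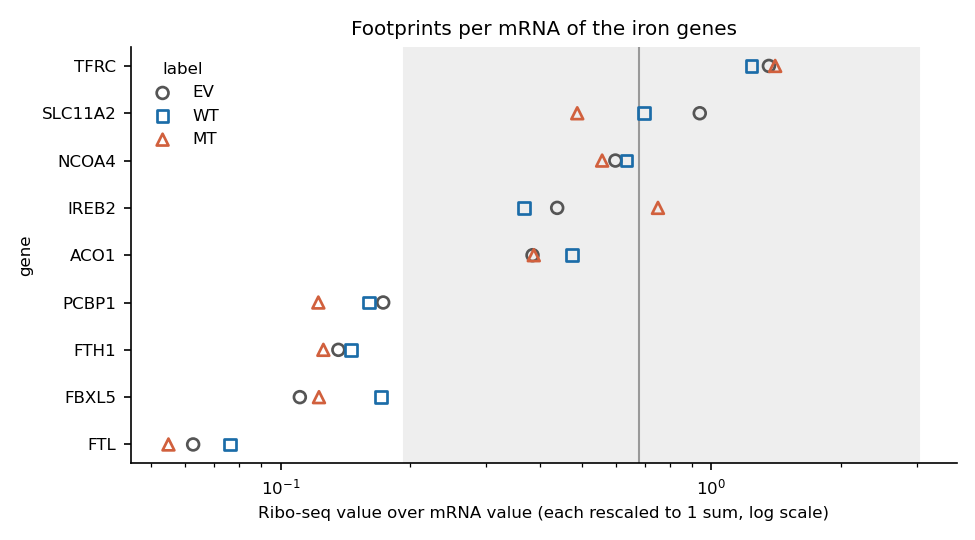
Footprint value over mRNA value on a log axis, each library rescaled to 1 sum, for 9 iron genes (SLC40A1 left out for its low values). The line is the median of all ranked genes in EV (0.678) and the grey band runs from their 5th to their 95th percentile (0.193 to 3.05). FTL, FBXL5, FTH1 and PCBP1 lie left of the band in all 3 labels.

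Differences between labels were small for most of the group. On the scale log2(value + 1), which understates differences of low genes, a gene was counted as measured at 1 unit or more in a library compared and as past the rule at an absolute difference of 1, that is 2-fold. A lower limit of 0.32 is given beside it. In mRNA 9 genes were measured (SLC40A1 was not) and 0 passed in any comparison. The share of all measured genes past the rule was 0.499% in WT over EV, 0.29% in MT over EV and 0.508% in WT over MT. At 0.32, 2 of 9 passed in WT over EV (FTH1 lower, and TFRC higher at the limit, 0.31 with differences centred on their median) against 14.3% of all genes, 0 in MT over EV against 11.8%, and 1 in WT over MT (FTH1 lower) against 14.4%. The median difference of the 9 genes was -0.15 in WT over EV (all genes -0.01) and 0.01 in MT over EV (all genes -0.01). In WT over MT it was -0.11 (all genes 0.003).

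In footprints only IREB2 in WT over MT passed the 2-fold rule. That is 0 of 10 genes in WT over EV (3.36% of all genes), 0 of 9 in MT over EV (2.83%) and 1 of 10 in WT over MT (3.19%). At 0.32, 3 of 10, 3 of 9 and 3 of 10 passed, against 34.0%, 28.3% and 32.8% of all genes, shares near the background. SLC11A2 was among them in all 3 comparisons, IREB2 and PCBP1 in both with MT, and SLC40A1 and FBXL5 in WT over EV, where FBXL5 was at the limit (0.30 with centring). SLC40A1 was measured in the comparisons with WT only, through its WT value. Median differences were 0.13, 0.004 and 0.15 (all genes 0.03, 0.01 and 0.01). With a minimum of 10 units, which leaves out SLC40A1 and FBXL5, the first was 0.04. For translational efficiency, the footprint difference minus the mRNA difference, 0 of 9 genes passed in each comparison, against 4.21% of all genes in WT over EV, 3.51% in MT over EV and 4.82% in WT over MT. At 0.32, 2, 3 and 5 of 9 passed in the same order, against 41.3%, 35.0% and 41.3% of all genes. Median translational efficiency differences were 0.12, -0.08 and 0.29 (all genes 0.04, 0.02 and 0.01). Comparisons with EV share that library, and those with WT or MT share those, so agreement between them is not separate evidence.

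**Figure D4:**
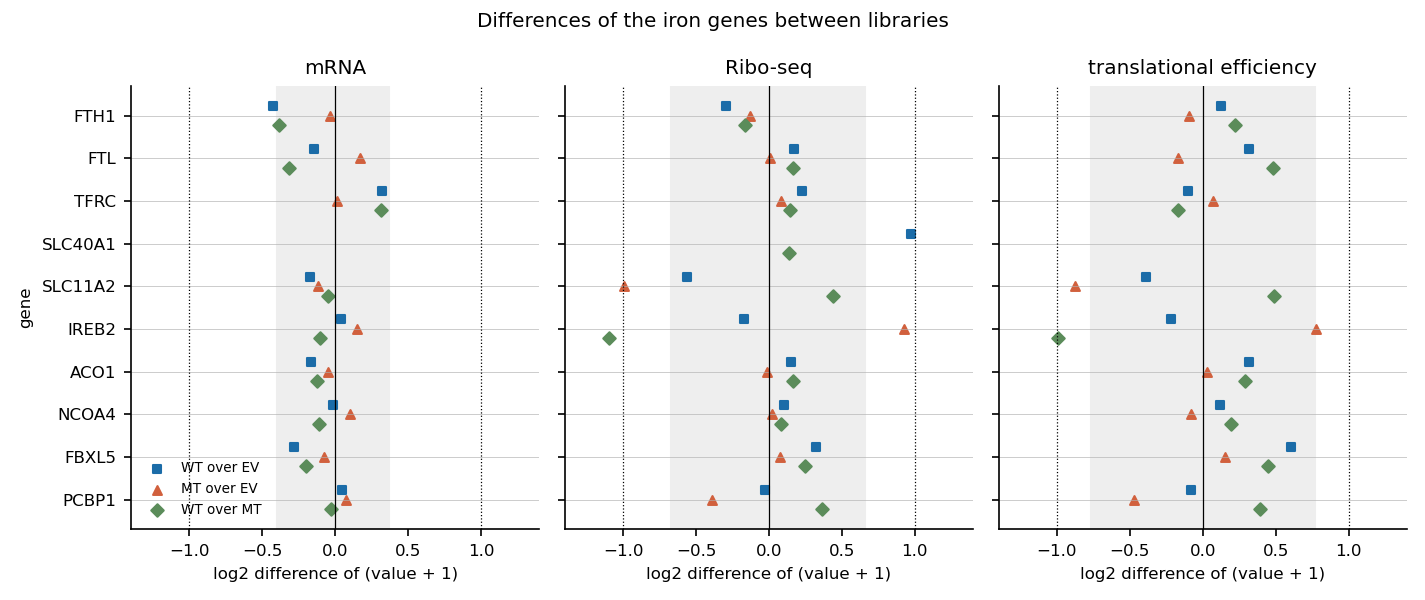
Difference of log2(value + 1) of each iron gene in mRNA, Ribo-seq and translational efficiency, with 1 symbol per comparison. Dotted lines mark the 2-fold rule and the grey band spans the 5th to 95th percentiles of all measured genes (the widest of the 3 comparisons). IREB2 in WT over MT is the only point past a dotted line, at -1.10 in Ribo-seq, and SLC11A2 in MT over EV lies next to it at -0.99.

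Among the storage genes, FTH1 mRNA was lowest in WT. The FTH1 difference was -0.42 in WT over EV and -0.39 in WT over MT, which lay below the 5th percentile of the 307 and 310 genes at 200 FPKM or more (-0.32 and -0.26). Its footprints were also lowest in WT (-0.30 against EV), inside the 5th to 95th percentiles of genes of like level (-0.34 to 0.38). FTL mRNA was lowest in WT and highest in MT (-0.32 in WT over MT, 5th percentile -0.26), whereas its footprints were highest in WT (0.17 against EV and against MT, inside the percentiles). FTL translational efficiency was accordingly 0.48 higher in WT than in MT, just above the 95th percentile of 0.45.
The proportion of heavy to light chains therefore differed between these single libraries. FTH1 mRNA was 1.303 times FTL mRNA in EV, 1.07 times in WT and 1.13 times in MT, and FTH1 footprints were 2.83, 2.05 and 2.58 times those of FTL. WT had the lowest proportion in both assays.

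Of the uptake genes, TFRC was highest in WT in both assays. Its mRNA was 37.3 FPKM for EV, 46.8 for WT and 37.5 for MT, a difference of 0.32 in WT over EV, at the 95th percentile of 4895 genes between 10 and 50 FPKM (0.32). Footprints were 108 TPM for EV, 126 for WT and 114 for MT (0.22 in WT over EV, 95th percentile 0.44). TFRC over FTH1 was 0.0214, 0.0360 and 0.0221 in mRNA and 0.214, 0.307 and 0.248 in footprints for EV, WT and MT, highest in WT in both. SLC11A2 mRNA was 12.5, 11.0 and 11.4 FPKM, while its footprints were 24.9 TPM for EV, 16.6 for WT and 11.98 for MT. SLC11A2 footprints in MT were thus 0.482 times those in EV (-0.99, 5th percentile -0.48 of 3749 genes between 10 and 50 TPM), and translational efficiency differed by -0.87 (5th percentile -0.44). In WT over EV the footprint difference was -0.56, at the 5th percentile of -0.56.

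The exporter SLC40A1 was at the limit of detection. Its mRNA was 0.716 FPKM for EV, 0.232 for WT and 0.408 for MT, and its footprints 0.097, 1.16 and 0.957 TPM. The EV footprint value lies under the level of a typical gene seen in only 1 library, so no fold is given over it. On the log2(value + 1) scale the WT over EV footprint difference was 0.98, a value that depends on the pseudocount.

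The iron sensors IREB2 and ACO1 stood furthest apart in the footprints of the single MT library. IREB2 mRNA was 26.1 FPKM for EV, 26.9 for WT and 29.0 for MT. IREB2 footprints were 24.3 TPM for EV, 21.4 for WT and 47.0 for MT, so MT stood at 1.94 times EV while WT and EV lay close together. The IREB2 difference was -1.10 in WT over MT (5th percentile -0.61 of 3783 genes between 10 and 50 TPM) and 0.93 in MT over EV (95th percentile 0.62). Among genes of that level 2.35% passed the 2-fold rule in WT over MT. ACO1, its relative, stood at 22.6, 20.0 and 21.9 FPKM and at 18.5, 20.6 and 18.3 TPM, with no difference over 0.17 in size in either assay. IREB2 footprints were 1.31 times those of ACO1 in EV, 1.04 times in WT and 2.57 times in MT. FBXL5, whose protein acts on the IREB2 protein, stood at 27.2, 22.2 and 25.7 FPKM and at 6.39, 8.25 and 6.79 TPM, lowest in mRNA and highest in footprints in WT (-0.28 and 0.32 against EV, both inside the percentiles of genes of like level).

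Of the genes that load and recycle ferritin, NCOA4 hardly differed. It stood at 147, 146 and 158 FPKM and at 187, 201 and 189.5 TPM in EV, WT and MT, with differences between -0.11 and 0.10 in both assays. PCBP1 mRNA was 156, 162 and 165 FPKM, and its footprints 57.2, 56.1 and 43.3 TPM, lowest in MT. The PCBP1 footprint difference of -0.39 in MT over EV lay below the 5th percentile of 1667 genes between 50 and 200 TPM (-0.31).

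The wider iron system, 75 genes from lists of transport, haem and iron-sulfur cluster genes, was likewise close to the background. Of 59 measured in mRNA, 0 passed the 2-fold rule in any comparison, with medians of -0.01, 0.0003 and 0.0008 in WT over EV, MT over EV and WT over MT. The shares of all genes past the rule were 0.499%, 0.29% and 0.508%. In footprints 0 of 61, 0 of 60 and 1 of 61 passed, against 3.36%, 2.83% and 3.19% of all genes. The gene that passed, chosen after its values were seen, was the ferrireductase STEAP2 (4.20 TPM in WT and 1.55 in MT). In translational efficiency 2 of 59 passed in WT over EV (4.21% of all genes), 1 of 59 in MT over EV (3.51%) and 1 of 59 in WT over MT (4.82%), shares below the background. STEAP2 was the 1 in WT over MT (1.14), and the other 3 reached 10 units in a library compared. FDXR, the reductase that feeds electrons into mitochondrial cluster assembly, was higher in MT over EV (1.34), with mRNA of 9.61 FPKM in EV and 5.91 in MT and footprints of 9.01 and 15.5 TPM. In WT over EV it was also higher (0.87). The mitochondrial iron carrier SLC25A28 was lower in WT over EV (-1.12), with 8.10 FPKM in EV and 10.3 in WT and footprints of 10.3 and 5.45 TPM. In MT over EV it was also lower (-0.83). BOLA2B was lower in WT over EV (-1.01) and in MT over EV (-0.55). It is uncertain, since reads may be split between it and its near-identical copy BOLA2. Their mRNA differences in WT over EV were opposite (0.57 for BOLA2B, -0.61 for BOLA2).

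By list, 27 of 27 genes of mitochondrial iron and cluster assembly were measured, with median footprint differences of -0.10 in WT over EV, 0.03 in MT over EV and -0.02 in WT over MT. The 12 haem genes had medians of -0.17, -0.06 and -0.23, and their most abundant members, biliverdin reductase BLVRB (230.3, 186 and 225 TPM in EV, WT and MT) and the haem synthesis enzyme UROD (105, 92.3 and 129.5 TPM), did not pass the rule. Of 16 uptake and reduction genes 10 were measured in footprints of WT over EV (median -0.15), 9 in MT over EV (-0.10) and 10 in WT over MT (0.07), among them the zinc and iron transporter SLC39A14 (62.9 TPM in EV and 50.7 in WT). Of 7 export genes 3 were measured in WT over EV (median -0.06), 2 in MT over EV (-0.09) and 3 in WT over MT (0.09). In EV and WT, ceruloplasmin (CP), the plasma ferroxidase, stood at 20.6 and 19.4 TPM and the haem exporter FLVCR1 at 5.64 and 5.36 TPM.

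Genes with differences most like those of FTH1, FTL and TFRC were sought over WT minus EV and MT minus EV in both assays, among 4722 genes at 10 units or more in all 6 libraries. The nearest by Euclidean distance of these 4 log2 differences were SNAPIN, PTPA and RPL37 for FTH1 (0.11 to 0.14), FAM204A, DMAC2 and MTX1 for FTL (0.06 to 0.07) and SAE1, RPF1 and GTF2F2 for TFRC (0.07 to 0.10). With 4 values per gene such likeness is a description only.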

How the data were processed

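The 6 libraries are RNA-seq and Ribo-seq of 786-O cells under the labels EV, WT and MT. According to the labels' protocols, cycloheximide at 100 µg/ml was added to the medium for Ribo-seq, footprints were made with RNase I and ribosomal RNA was removed with probes. The deposited RNA-seq columns carry no unit and were read as FPKM from their sums. The deposited Ribo-seq columns were read as TPM, since each sums to 1000000. Values not scaled by length could have the same sum, so the sum does not settle the unit. The submitters' processing notes name human genome build 18 (hg18), which is not the build of the RefSeq windows. The aligner, counter and annotation were not given in the sources used here. Read depth is unknown, and precision cannot be stated.

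Columns were matched to samples by name. Of 20307 rows, 605 without a gene name (0.153% to 0.564% of a column's sum) and 7 symbols whose repeated rows disagreed were dropped. All 19669 other symbols matched the symbol table given. Differences of log2(value + 1) were taken from unscaled values with Python 3.11.15, numpy 2.4.6 and pandas 2.3.3, with no test. The procedure was tested on simulated data. Bands of like level were 1 to 10, 10 to 50, 50 to 200 and 200 units or more, by the higher library compared (for translational efficiency, the lowest value of the 4).

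All 10 genes are named. Of the other iron genes, those past the 2-fold rule at 10 units were named, or with none the most abundant 2 of a list. Members and lists were chosen with earlier results of these data known. Alternatives were the pseudocount, the minimum, the scaling and the pairing of labels between assays. Some genes of the lists are not reported here.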

Additional observations from a re-analysis of the deposited data

How the results depend on the processing

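Of 57 recomputed counts of iron genes past the 2-fold rule, 46 did not change. In WT over MT footprints the count of 1 (IREB2) became 0 with a pseudocount of 10. The count of 0 became 1 in WT over EV footprints with a pseudocount of 0.1 (SLC40A1, 2.67), and 1 in MT over EV footprints with a pseudocount of 0.1 (SLC11A2, -1.05) or with differences centred on their median (SLC11A2, -1.001). In translational efficiency of WT over EV it became 1 with no minimum and with rescaling that leaves out mitochondrially encoded genes and PHYHD1 (SLC40A1, 1.45 and 1.82), and in MT over EV 1 with no minimum (SLC40A1, 1.12). In WT over MT it became 1 through IREB2 with a pseudocount of 0.1 (-1.02), with centring (-1) and with that rescaling (-1.01). With WT and MT exchanged in Ribo-seq it was 1, where IREB2 stood at 1.20. SLC40A1 enters the translational efficiency counts by construction, since it is not measured in mRNA otherwise. For the others the cause was not tested. At the lower limit of 0.32, TFRC mRNA and FBXL5 footprints in WT over EV fell short with centring (0.31 and 0.30) and with a pseudocount of 10 (0.27 and 0.15). With that pseudocount SLC40A1 in WT over EV (0.14) and PCBP1 and SLC11A2 in WT over MT footprints (0.31 and 0.27) fell short too, while centring brought in FTH1 footprints in WT over EV (-0.3217) and FTL mRNA in WT over MT (-0.33). A minimum of 10 units left SLC40A1 and FBXL5 footprints out, and the WT over EV footprint median became 0.04. All 57 medians of the group moved by less than the robust SD over all genes, although 5 had the other sign. Of these, 4 have a value of 0.01 or 0.004 in the report. The fifth, translational efficiency in WT over MT, went from 0.29 to -0.04 with WT and MT exchanged in Ribo-seq. With the RNA-seq values as deposited the FTL ratio in EV was 0.133 and the FTH1 ratio 0.289. No replicate could be left out, and no paired analysis was possible because each label has 1 library per assay. Unknown read depth limits SLC40A1 and FBXL5 most.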

Other observations

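Of the haem genes, UROS and HMOX1 were chosen after their values were seen. UROS, an enzyme of haem synthesis, stood at 34.7, 34.6 and 40.8 FPKM in EV, WT and MT but at 15.7 TPM for EV, 7.94 for WT and 14.4 for MT (-0.90 in WT over EV). HMOX1, which breaks haem down, was 20.3, 17.8 and 14.8 FPKM and 40.1, 41.2 and 48.6 TPM, so that MT was lowest in mRNA and highest in footprints.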
